A study of Mus musculus with 4 samples.

Results

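The genes described here are 10 regulators, receptors and adaptors of the primitive endoderm: Gata4, Gata6, Sox7, Sox17, Hnf4a, Foxa2, Pdgfra, Dab2, Cubn and Lrp2. They were taken by symbol (GENCODE vM21) from a table of 55421 gene identifiers, and all 10 were found. The study compared E14 mouse embryonic stem cells, a line of 129/Ola background made from a blastocyst, in which the MiR-290-295 cluster was knocked out (KO, n = 2 libraries) with wild-type cells of the line (WT, n = 2 libraries). Both were kept on gelatin in medium with serum and leukaemia inhibitory factor (LIF), and no other allele or agent is named for either group. The submitters call the samples of a group biological duplicates. Whether the KO pair came from 1 clone or from several is not given, so p-values cover only the spread seen among these 4 libraries, named KO1, KO2, WT1 and WT2 here. Levels are CPM values (counts scaled to the library total) from libraries of 3' tags, in which a transcript is counted near its poly(A) tail, and they are compared between libraries, not between genes.

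The primitive endoderm is the extraembryonic layer that forms on the inner cell mass of the blastocyst and later gives the visceral and parietal endoderm of the yolk sac. FGF signalling through ERK favours it over the pluripotent epiblast, GATA6 starts the program, and GATA4, SOX17, SOX7, HNF4A and FOXA2 act in it or in the visceral endoderm that follows. Cultures of embryonic stem cells in serum usually hold a few cells that turn on this program. The PDGF receptor alpha (Pdgfra) marks early primitive endoderm, and megalin (Lrp2), cubilin (Cubn) and the adaptor DAB2 take up nutrients by endocytosis in visceral endoderm. In a bulk library, fewer cells of such a type and less RNA per cell cannot be told apart.

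The libraries held between 9925557 and 12726123 counts, so 3 counts in a library correspond to 0.236 to 0.302 CPM. The 7 microRNA genes on the plus strand of the cluster held 0 counts in either KO library, 88 in WT1 and 39 in WT2. Mir290b, annotated on the minus strand within Mir290a, held 4 counts in KO1 and 0 in the other 3 libraries. The stem cell markers Pou5f1, Sox2, Nanog, Zfp42 and Esrrb were present in every library, and none of the 5 passed the test between groups (log2 fold changes of -0.17 to 0.44, edgeR adjusted p of 0.0909 to 0.918).

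Mature 3' arms of the microRNAs that the KO cells lack are shown first, because their seed (bases 2 to 8, in capitals) sets which transcripts they can pair with. RefSeq (GRCm38.p6) holds 6 of the 3' arms of the cluster's plus strand, on chromosome 7, as read here. That of miR-292 was not among them, and the 5' arms were not searched. Of these, 5 share AAGUGC at bases 2 to 7, and miR-293-3p does not.
miR-290a-3p: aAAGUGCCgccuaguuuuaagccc
miR-291a-3p: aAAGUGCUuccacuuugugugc
miR-291b-3p: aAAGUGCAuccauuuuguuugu
miR-293-3p: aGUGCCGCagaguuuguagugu
miR-294-3p: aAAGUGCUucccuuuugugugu
miR-295-3p: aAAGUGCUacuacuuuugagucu

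The sequence that pairs with this shared seed is GCACTT, read on the transcript, or AGCACTTA where base 8 of miR-291a, miR-294 and miR-295 pairs and an A lies opposite base 1. The longest annotated 3' untranslated region of each gene was searched on the sense strand, and GCACTT was found in 4 of the 10 genes, against 33.3% of the 12481 tested protein-coding genes that have one. Lrp2, the 1 gene of the set that was higher without the cluster, held the full AGCACTTA, which 3.46% of those genes hold. Hnf4a held AGCACTT (17.6% of those genes), which pairs with bases 2 to 8 of the same 3 microRNAs. Dab2 and Pdgfra held TGCACTT (14% of those genes), which pairs with bases 2 to 8 of miR-291b. A match to bases 2 to 8 of any of the 6 printed microRNAs was present in 4 of the 10 genes and in 33.4% of the tested genes. Hnf4a, Dab2 and Pdgfra were all lower in KO. Gata4, Gata6, Sox7, Sox17, Foxa2 and Cubn held neither GCACTT nor a match to bases 2 to 8 of miR-293-3p. Shorter matches to miR-293-3p were not searched. The 4 matches are printed with their surroundings, in GRCm38 coordinates of the match itself and with the matching bases in capitals. A match is a description of the sequence, and whether the microRNAs act on it was not measured here.
Lrp2, chr2:69425173-69425180, minus strand: tttacatgtcAGCACTTAatcaataatc
Hnf4a, chr2:163571348-163571354, plus strand: actcacaggaAGCACTTgtcccccctgg
Dab2, chr15:6440649-6440655, plus strand: tgtcttcttgTGCACTTttctgtatgca
Pdgfra, chr5:75197984-75197990, plus strand: cgttaactgtTGCACTTttgaatgtcca

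Of the 10 genes, 6 were lower in KO (Gata6, Sox17, Hnf4a, Pdgfra, Dab2 and Cubn) and 1 was higher (Lrp2) by the edgeR quasi-likelihood test of 14427 genes, with calls made where the adjusted p was under 0.05. Of all tested genes, 4.96% were lower and 7.42% were higher. The median log2 fold change (KO over WT) of the 10 was -2.73, against -0.00609 for all tested genes. Because the 10 genes were chosen with earlier results of these data known, these shares and medians only describe the set. Gata4, Sox7 and Foxa2 did not pass. Both KO libraries lay below both WT libraries for 8 genes and above them for Lrp2, against 28.8% and 29.2% of tested genes, and for Foxa2 the groups overlapped. Summed over all 10 genes, the level was 53.3 CPM in KO1 and in KO2, and 95.3 and 78.1 CPM in WT1 and WT2. Most of the KO sum was Lrp2. Over the 9 genes other than Lrp2, the level was 11.2 and 11 CPM in KO1 and KO2, and 73.9 and 59.7 CPM in WT1 and WT2. Dab2 and Gata6 were the largest parts of that WT sum. Hnf4a, Pdgfra and Cubn reached the level of the low-count filter (0.836 CPM in 2 libraries) through WT only, and Sox17 through WT and KO1, so genes of this kind entered the test because they were high in WT. With no filter, 6 genes were lower and 1 higher as well.

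**Figure D1:**
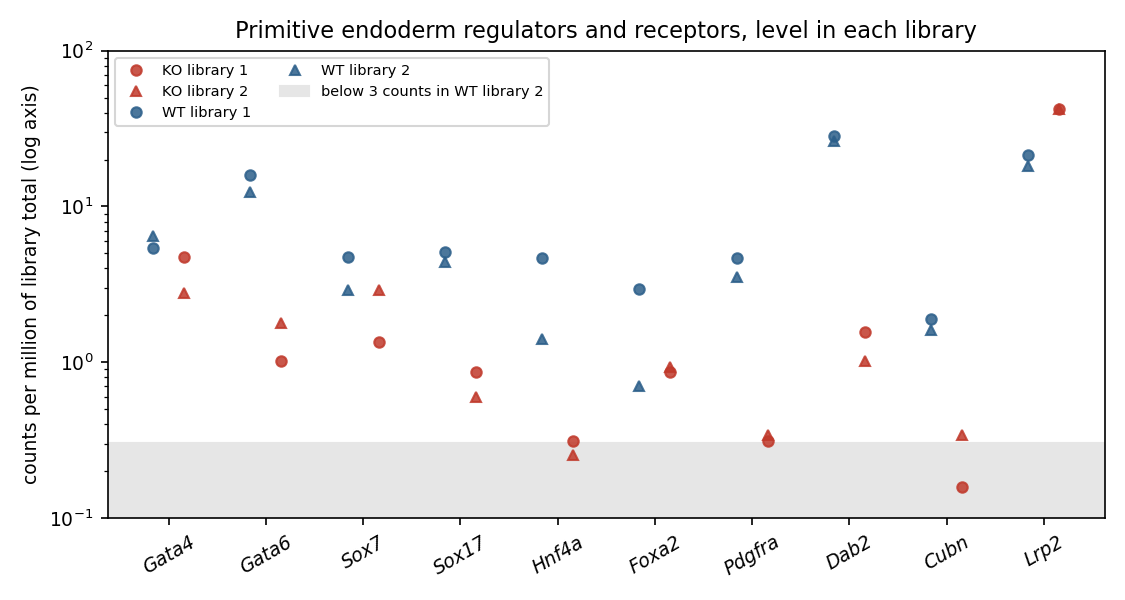
CPM (log axis) of each of the 10 genes in the 4 libraries, with WT to the left and KO to the right of each name and the level below 3 counts in the shallowest library shaded. Gata6, Sox17, Hnf4a, Pdgfra, Dab2 and Cubn lie lower in both KO libraries, Lrp2 lies higher, and Foxa2 overlaps because WT2 is at 0.705 CPM.

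The GATA factors came first. Gata6 (ENSMUSG00000005836, chromosome 18, 11052064 to 11085635, plus strand), the zinc finger factor that starts the primitive endoderm program, had 193 and 123 counts in WT1 and WT2 (15.9 and 12.4 CPM) and 13 and 21 counts in KO1 and KO2 (1.02 and 1.78 CPM). The groups were far apart, and Gata6 fell by 3.33 on the log2 scale (SE 0.40, edgeR adjusted p = 0.00141). From the summed counts, WT was 10.3-fold higher (95% counting interval 7.22 to 15.1). With 1 library left out the log2 fold change lay between -3.77 and -2.97 and the call held each time. An opposite-strand gene whose exons overlap Gata6, 1010001N08Rik, held 14 and 5 counts in WT and 0 in both KO libraries. The sources used here do not state whether counting used strand, so reads of the pair cannot be told apart. These counts are small beside those of Gata6.

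Gata4 (ENSMUSG00000021944, chromosome 14, 63198922 to 63271692, minus strand), a close relative that is active later in the same lineage and in the heart, had 66 and 64 counts in WT (5.43 and 6.45 CPM) and 60 and 33 in KO (4.71 and 2.80 CPM). KO1 lay just under WT1. The log2 fold change of -0.65 (SE 0.40) did not pass (edgeR adjusted p = 0.333), and the KO libraries themselves differed by 1.68-fold (95% counting interval 1.08 to 2.65). With 1 library left out it lay between -1.07 (without KO1) and -0.32 (without KO2). The difference between the changes of Gata6 and Gata4 was not tested.

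The SOX factors came next. Sox17 (ENSMUSG00000025902, chromosome 1, 4490931 to 4497354, minus strand), an HMG-box factor needed for extraembryonic and definitive endoderm, had 62 and 44 counts in WT (5.10 and 4.43 CPM) and 11 and 7 in KO (0.864 and 0.595 CPM). Both KO libraries were well below WT, and Sox17 fell by 2.69 (log2, SE 0.50, edgeR adjusted p = 0.0109). WT was 6.53-fold higher in summed counts (95% counting interval 3.94 to 11.4). Without KO2 the value was -2.44 with an adjusted p of 0.0504. Sox7 (ENSMUSG00000063060, chromosome 14, 63943673 to 63950732, plus strand), of the same SOX subgroup and also used by endothelial cells, had 58 and 29 counts in WT (4.77 and 2.92 CPM) and 17 and 34 in KO (1.34 and 2.89 CPM). KO2 and WT2 were at nearly the same level. The log2 fold change of -0.87 (SE 0.53) did not pass (edgeR adjusted p = 0.317), and it moved from -1.52 without KO2 to -0.41 without KO1.

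Hnf4a (ENSMUSG00000017950, chromosome 2, 163506808 to 163572910, plus strand), a nuclear receptor of visceral endoderm and liver, had 57 and 14 counts in WT (4.69 and 1.41 CPM) and 4 and 3 in KO (0.314 and 0.255 CPM). The KO libraries were near the floor of 3 counts, and the WT libraries differed by 3.32-fold (95% counting interval 1.83 to 6.46). Hnf4a fell by 3.39 (log2, SE 0.78, edgeR adjusted p = 0.0228). The call did not hold without KO1 (-3.54, adjusted p = 0.0553), without KO2 (-3.25, 0.0693) or without WT1 (-2.24, 0.165), and it held without WT2 (-4.01, 0.00153). Foxa2 (ENSMUSG00000037025, chromosome 2, 148042877 to 148046969, minus strand), a forkhead factor of visceral and definitive endoderm, had 36 and 7 counts in WT (2.96 and 0.705 CPM) and 11 in each KO library (0.864 and 0.935 CPM). WT2 lay below both KO libraries. The log2 fold change of -1.05 (SE 0.71) did not pass (edgeR adjusted p = 0.378), and it was 0.36 without WT1 and -1.73 without WT2. Hnf4a and Foxa2 were both highest in WT1, as were Gata6, Sox7, Sox17, Pdgfra, Dab2 and Cubn.

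**Figure D2:**
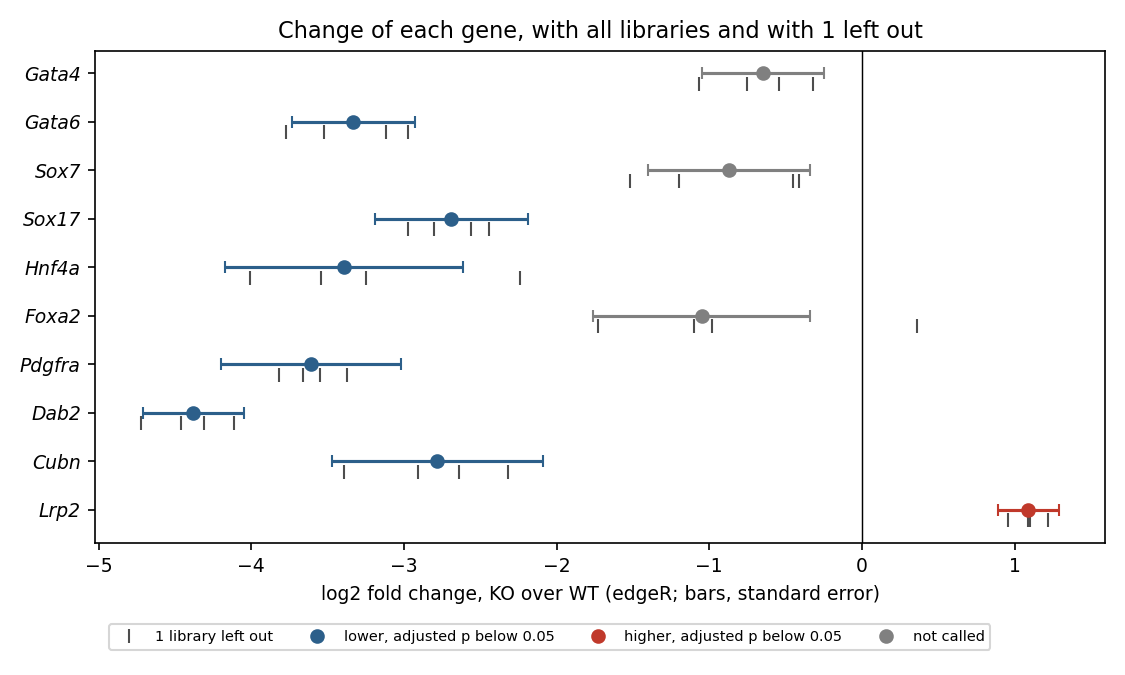
Log2 fold change of KO over WT from edgeR for each gene (point, with its standard error as the bar) and, as ticks under it, the value with each library left out. Dab2, Pdgfra and Gata6 stay between -4.72 and -2.97 and Lrp2 between 0.96 and 1.22, and Foxa2 crosses 0 when WT1 is left out.

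Among the surface receptors, Pdgfra (ENSMUSG00000029231, chromosome 5, 75152292 to 75198215, plus strand) had 57 and 35 counts in WT (4.69 and 3.53 CPM) and 4 in each KO library (0.314 and 0.340 CPM). This receptor tyrosine kinase binds platelet-derived growth factors and is a reporter gene for primitive endoderm in the embryo. The KO libraries were near the floor, and Pdgfra fell by 3.61 (log2, SE 0.59, edgeR adjusted p = 0.00588). WT was 12.8-fold higher in summed counts (95% counting interval 6.21 to 30.4), and the call held with any 1 library left out (-3.82 to -3.37). Mesoderm and fibroblasts also make Pdgfra, and 3 of 6 tested fibroblast or feeder markers (of 14 listed) were lower in KO, with a list median of -0.92. They were Thy1 (-1.34), Col1a1 (-2.19) and Col5a1 (-1.10). The 14 markers summed to 19.6 and 33.1 CPM in KO and 48.8 and 69.5 CPM in WT, and without Thy1 the other 13 summed to 9.74 and 12.7 CPM in KO and 22 and 19.3 CPM in WT. Col3a1, Col6a1, Dcn, Postn and Prrx1 held 0 counts in every library, Col1a2 held 4 in WT1 only, and Lum held 1 in KO1 only. None of the 3 calls held in each fit with 1 library left out: without KO1 none passed, and 1 was lower in each of the other 3 fits. Without WT1, 1 marker was higher. The part of such cells in the fall of Pdgfra was not tested.

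Dab2 (ENSMUSG00000022150, chromosome 15, 6299788 to 6440712, plus strand), the clathrin adaptor that binds the tails of megalin and related receptors, had 347 and 261 counts in WT (28.5 and 26.3 CPM) and 20 and 12 in KO (1.57 and 1.02 CPM). It showed the largest change of the 10, a fall of 4.38 on the log2 scale (SE 0.33, edgeR adjusted p = 0.000192), and only 0.173% of tested genes had a lower value. WT was 21.1-fold higher in summed counts (95% counting interval 14.8 to 31.1), and with 1 library left out the log2 fold change stayed between -4.72 and -4.11. Cubn (ENSMUSG00000026726, chromosome 2, 13276338 to 13491813, minus strand), the receptor for intrinsic factor and vitamin B12 that has no membrane span of its own, had 23 and 16 counts in WT (1.89 and 1.61 CPM) and 2 and 4 in KO (0.157 and 0.340 CPM). Cubn fell by 2.78 (log2, SE 0.69, edgeR adjusted p = 0.0318), and WT was 7.21-fold higher in summed counts (95% counting interval 3.03 to 20.8). These counts are low, and the call did not hold when any 1 of the 4 libraries was left out (-3.39 to -2.32, adjusted p of 0.0541 to 0.269) or in the DESeq2 test (adjusted p = 0.0988). The opposite-strand gene Gm13270, whose exons overlap Cubn, held 3 and 0 counts in KO and 7 and 0 in WT.

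Lrp2 (ENSMUSG00000027070, chromosome 2, 69424340 to 69586065, minus strand) went the other way. This gene encodes megalin, a very large receptor of the LDL receptor family that works with cubilin and DAB2 in visceral endoderm and kidney and is also made by neural epithelium. It had 260 and 182 counts in WT (21.4 and 18.3 CPM) and 536 and 498 in KO (42.1 and 42.3 CPM). The KO libraries lay close together, both were above WT, and Lrp2 rose by 1.09 (log2, SE 0.20, edgeR adjusted p = 0.0104). In summed counts KO was 2.11-fold higher (95% counting interval 1.89 to 2.36). The call held with any 1 library left out (0.96 to 1.22), with its largest adjusted p, 0.0496, without KO2. A ratio of counts within a library does not depend on scaling between libraries: for each 100 counts of Lrp2 there were 133 and 143 of Dab2 in WT1 and WT2, and 3.73 and 2.41 in KO1 and KO2. Cubn stood at 8.85 and 8.79 per 100 of Lrp2 in WT and at 0.373 and 0.803 in KO. Because Lrp2 itself was higher in KO, these ratios, and that of Amn below, fell further than the levels of Dab2, Cubn and Amn.

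The other parts of this uptake route were read from a list of 26 genes of receptors, adaptors and coat proteins, all tested. In that list 3 were lower, 2 were higher and 21 did not pass, with a median of -0.09. Amn, which encodes amnionless, the membrane anchor of cubilin, had 105 and 94 counts in WT and 22 and 13 in KO, and fell by 2.66 (log2, SE 0.41, edgeR adjusted p = 0.00458). It stood at 40.4 and 51.6 counts per 100 of Lrp2 in WT and at 4.10 and 2.61 in KO. Dab1, the neuronal relative of Dab2, fell by 1.25 (SE 0.29, adjusted p = 0.0245). Vldlr, a lipoprotein and reelin receptor, rose by 2.75 (SE 0.29, adjusted p = 0.000834), and Clcn5, an endosomal chloride transporter of the megalin route, rose by 0.86 (SE 0.22, adjusted p = 0.0343). Lrpap1, the chaperone of megalin, did not pass (0.39, adjusted p = 0.367), nor did the clathrin chains Cltc (0.28), Clta (-0.06) and Cltb (0.56). The 5 AP2 subunit genes lay between -0.30 and 0.44 and did not pass. With 1 library left out, Amn and Vldlr kept their calls, while Dab1 (-1.06 without KO1, -0.92 without WT1) and Clcn5 (0.70 without KO1, 1.02 without KO2) did not. The number lower in this list was 1 without KO1 or WT1, and the number higher was 1 without either KO library and 3 without WT1.

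**Figure D3:**
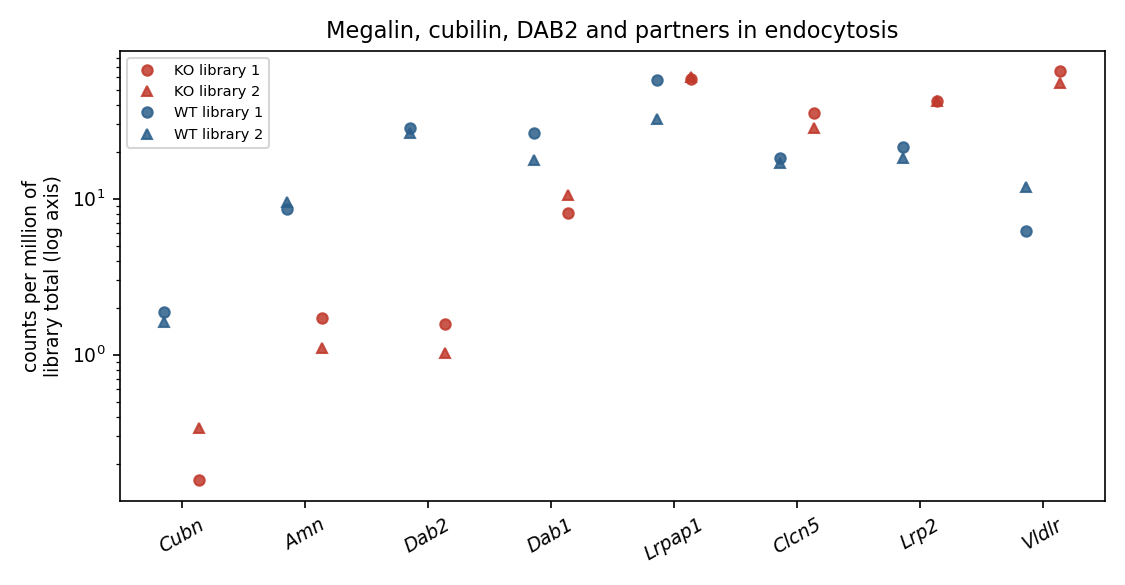
CPM (log axis) of Cubn, Amn, Dab2 and partners in the 4 libraries, WT to the left and KO to the right of each name. Cubn, its anchor Amn and the adaptor Dab2 are lower in both KO libraries, while Lrp2 is higher at 42.1 and 42.3 CPM and Lrpap1 in WT1, at 57.6 CPM, lies just under its KO values of 58.4 and 60.3 CPM.

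Other transcription factors of the primitive endoderm and its derivatives were read from a list of 17: of these, 10 were tested, 1 was lower and 0 were higher, with a median of -0.05. The lower gene was Foxq1, a forkhead factor, with 162 and 76 counts in WT and 12 and 24 in KO (log2 fold change -2.82, SE 0.49, edgeR adjusted p = 0.00771). Zfpm1, which encodes the GATA partner FOG1, gave -1.07 (adjusted p = 0.0873) and passed without KO2 (-1.58) or WT1 (-1.29). Cited1 gave -1.17 (adjusted p = 0.206), and Nr2f2, at 30 and 27 counts in KO and 13 and 0 in WT, gave 2.01 (adjusted p = 0.179). It passed without WT1, where the lone WT library held 0 counts. Without WT1, 3 were lower and 1 was higher, and without KO2, 2 were lower. Foxa1, Gata5, Sox18, Hnf4g, Nr2f1 and Zfpm2 held at most 8 counts in any library.

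Products of the visceral endoderm came next. Of 24 listed, 12 were tested, 3 were lower and 1 was higher, with a median of -0.30. Afp, Ttr, Apob and Apoa4 held at most 2 counts in any library, and Apoc2, Cer1 and Slc2a2 held 0 in all 4. Trf (transferrin) fell by 2.17 (log2, SE 0.35, edgeR adjusted p = 0.00527), Amn fell as given above, and Podxl, a sialomucin that stem cells also make, fell by 1.13 (SE 0.25, adjusted p = 0.0193, and -0.98 with 0.138 without KO2). Dpp4, a surface peptidase, rose by 1.71 (SE 0.18, adjusted p = 0.000834). The count of higher genes was 2 without WT1. Most of the summed level of the list was Apoe, with 10539 and 9974 counts in KO and 7910 and 4549 in WT (log2 fold change 0.59, adjusted p = 0.0604).

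Genes of the basement membrane and the parietal endoderm came next. Of 20 listed, 17 were tested, 8 were lower and 1 was higher, with a median of -0.75. The collagen IV chains Col4a1 (-3.95, SE 0.23) and Col4a2 (-3.17, SE 0.36) and the laminin chain Lama1 (-2.25, SE 0.26) had edgeR adjusted p-values of 7.86e-05, 0.00107 and 0.00115, and the proteoglycan core Srgn gave -3.29 (SE 0.55, adjusted p = 0.00637). Serpinh1, a collagen chaperone, rose by 1.52 (SE 0.17, adjusted p = 0.000954). The calls of Lamb1 (-1.07), Nid2 (-0.60), Hspg2 (-0.75) and P4ha2 (-1.36) did not hold in each fit with 1 library left out, and 4 to 9 genes were lower there. Without KO2, 4 were lower, and without WT1 or WT2, 2 were higher. Sparc (-0.10), Lamc1 (0.42) and Nid1 (-0.50) did not pass.

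Ligands and signals upstream of these genes were read from a list of 22 for PDGF and FGF signalling, of which 20 were tested, 3 were lower and 4 were higher, with a median of 0.05. Pdgfc, a ligand of the PDGF receptor alpha, rose by 3.28 (log2, SE 0.25, edgeR adjusted p = 0.000195), from 65 and 41 counts in WT to 540 and 590 in KO. Pdgfa, the other main ligand, did not pass (-0.13, adjusted p = 0.684). Fgf4, which drives primitive endoderm formation in the blastocyst, rose by 0.80 (SE 0.16, adjusted p = 0.0134). Of the FGF receptor genes, Fgfr2 rose by 2.52 (SE 0.40, adjusted p = 0.005), from 67 and 32 counts to 429 and 201. Fgfr1, with 540 and 572 counts in WT and 724 and 536 in KO, did not pass (0.01, adjusted p = 0.979). Neither did Fgfr3 (-0.41, adjusted p = 0.637). The ERK feedback gene Spry4 fell by 1.86 (SE 0.28, adjusted p = 0.00388) and the ERK target Etv4 by 1.21 (SE 0.23, adjusted p = 0.0111), while Etv5 rose by 0.61 (SE 0.17, adjusted p = 0.045) and Dusp6 did not pass (0.36, adjusted p = 0.566). Fgfr4 fell by 2.22 (SE 0.60, adjusted p = 0.0427). Pdgfc, Fgfr2 and Spry4 kept their calls with any 1 library left out. Fgfr4 lost its call each time (-3.02 to -1.71), Etv4 without KO1 (-0.96), Fgf4 without KO2 (0.68), and Etv5 in every such fit but the one without WT1 (0.59, 0.64 and 0.41). Without KO1, 1 gene was lower, and without KO2, 2 were higher.

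**Figure D4:**
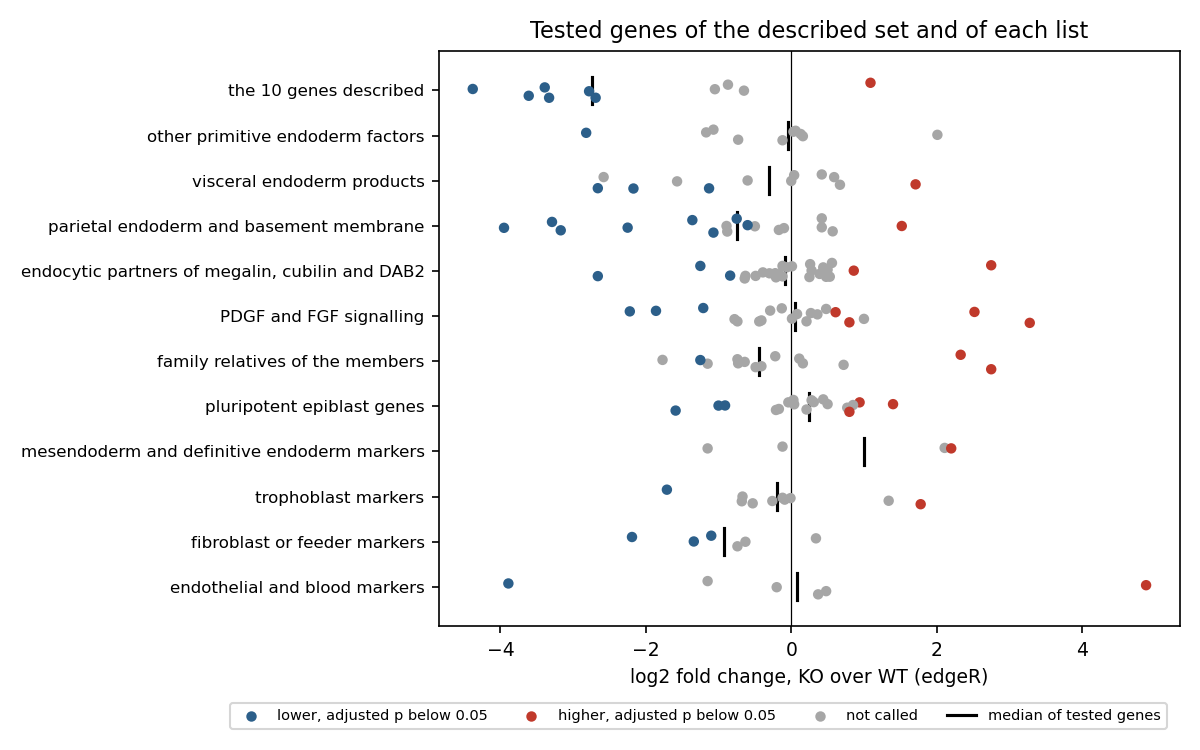
Log2 fold change (KO over WT, edgeR) of each tested gene of the 10 described and of each list, coloured by call, with the median of the tested genes as a black bar. The 10 genes have a median of -2.73, the list of basement membrane and parietal endoderm genes -0.75, and the list of visceral endoderm products -0.30.

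Relatives of the 10 genes, whose reads could be exchanged with theirs where sequences are alike, were checked in a list of 21. Of 14 tested, 1 was lower (Dab1) and 2 were higher (Vldlr and Gata2), with a median of -0.45. Gata2, a factor of blood and trophoblast, rose by 2.33 (log2, SE 0.49, edgeR adjusted p = 0.017), from 11 and 9 counts in WT to 67 and 46 in KO, and gave 2.11 (adjusted p = 0.112) without KO1. Gata1 gave -1.77 (adjusted p = 0.065). Without KO1 or WT1, 0 genes of the list were lower, without WT2, 2 were lower and 3 were higher, and without KO1, 1 was higher. Gata3, Gata5, Sox18, Foxa1 and Hnf4g held at most 11 counts in any library.

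Markers of other lineages that use some of the 10 genes were given the same reading. Of 15 mesendoderm and definitive endoderm markers, which share Sox17 and Foxa2 with the primitive endoderm, 4 were tested and 1 was higher, with a median of 1.00. The higher gene was Prdm1 (2.20, SE 0.31, edgeR adjusted p = 0.00275), which many lineages use. T, Mixl1, Gsc and Mesp1 held at most 11 counts in any library, and Cer1 held 0 in all 4. Their sum was 82.2 and 57.9 CPM in KO and 21.3 and 33.1 CPM in WT, but without Prdm1 it was 16.9 and 11.6 CPM in KO and 12.8 and 17.1 CPM in WT, where the groups overlapped. Eomes gave -0.12, Kdr -1.15 and Cxcr4 2.11, and none of the 3 passed. Without WT2, 1 was lower and 2 were higher (Kdr -1.97, Cxcr4 3.68), without WT1 Kdr gave 1.04, and without KO2, 2 were higher. Of 11 endothelial and blood markers, which share Sox7, 6 were tested, 1 was lower (Runx1, -3.89) and 1 was higher (Tal1, 4.88), with a median of 0.08, and their sum was 118 and 93.7 CPM in KO and 80.0 and 80.8 CPM in WT. Most of that was Pecam1, which did not pass (0.48, adjusted p = 0.136), and without it the sum was 13.3 and 16.3 CPM in KO and 19.2 and 10.6 CPM in WT. Emcn held 0 counts in every library. Without WT2, 2 were lower. Of 14 trophoblast markers, 10 were tested, Tfap2c was higher (1.78) and Ascl2 lower (-1.71), with a median of -0.19. Their sum was 423 and 278 CPM in KO and 136 and 161 CPM in WT, but without Tfap2c it was 44.2 and 48.5 CPM in KO and 46.4 and 72.9 CPM in WT. Prl3d1 held 0 counts in every library. Ascl2 did not pass when either KO library was left out (-1.56 and -1.86), and 2 were lower without WT1, where Tead4 (-0.85) passed. The part of such cells in the levels of Sox17, Foxa2, Sox7 and Lrp2 was not tested.

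Genes of the pluripotent epiblast, the alternative fate to primitive endoderm, moved in both directions: of 18 listed and tested, 3 were lower and 3 were higher, with a median of 0.24. Klf4 (-1.59, SE 0.21, edgeR adjusted p = 0.00235), Tbx3 (-1.0, SE 0.16, adjusted p = 0.00489) and Utf1 (-0.91, SE 0.15, adjusted p = 0.00568) fell. Gdf3 (1.40, SE 0.26, adjusted p = 0.0097), Klf2 (0.94) and Fgf4 rose. TBX3 is known to act in extraembryonic endoderm as well as in self-renewal. Utf1 gave -0.77 (adjusted p = 0.0559) without KO1. The number higher was 5 without WT1 or WT2, and 2 without KO2, and the number lower was 2 without KO1.

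The 5 tested genes whose pattern over the 4 libraries was most like that of Gata6 were Plac8, Pros1, Gm24494, Crym and Serpine2, with distances of 0.18, 0.28, 0.28, 0.41 and 0.43. The distance is Euclidean over log2(CPM + 0.5) values, each gene centred on its own mean, so it counts both direction and size. Plac8 had 180 and 113 counts in WT and 12 and 16 in KO. Pros1, which encodes the anticoagulant protein S, had 652 and 452 in WT and 77 and 95 in KO, and Serpine2, a secreted protease inhibitor, had 718 and 327 in WT and 67 and 85 in KO. Crym had 87 and 70 in WT and 7 and 11 in KO, and the small nucleolar RNA Gm24494 had 51 and 42 in WT and 0 and 2 in KO. Among the 10 genes themselves, Pdgfra was nearest to Gata6 (0.63), then Sox17 (1.08), Dab2 (1.26), Hnf4a (1.33) and Cubn (1.38), while Sox7 (2.21), Gata4 (2.53), Foxa2 (2.58) and Lrp2 (4.06) were farther. With 4 libraries in 2 groups, such a distance mostly reflects the size of the difference between the groups.

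The 10 genes also differed in how well the libraries of a group matched. The ratio of library 1 to library 2 left out 1 in its 95% counting interval for 4 genes in WT (Gata6, Sox7, Hnf4a and Foxa2), each of them higher in WT1, and for 2 genes in KO (Gata4 and Sox7). Foxa2 had the widest gap, 4.2-fold between the WT libraries (interval 1.84 to 11.2). Dab2 (1.08 in WT, interval 0.921 to 1.28) and Lrp2 (1.17 in WT, interval 0.961 to 1.42, and 0.995 in KO, interval 0.879 to 1.13) were within counting error.

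**Figure D5:**
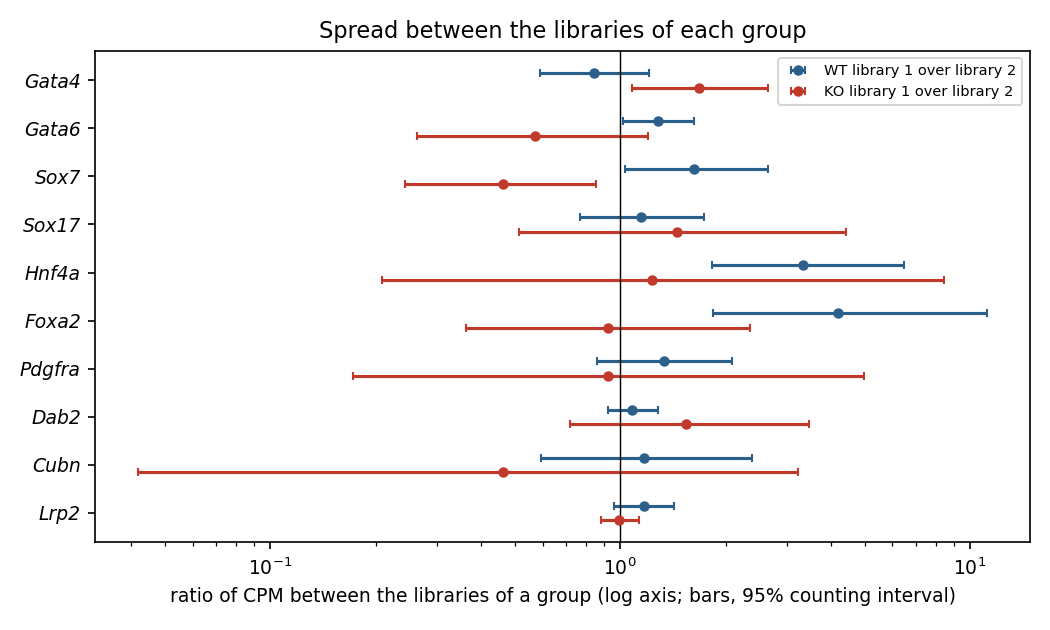
Ratio of CPM in library 1 to library 2 within WT and within KO for each gene (log axis), with exact 95% counting intervals as bars. Hnf4a and Foxa2 were 3.32-fold and 4.2-fold higher in WT1 than in WT2, and Cubn in KO has the widest interval, 0.0418 to 3.23, on 2 and 4 counts.

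Promoters were examined because Dab2 and Lrp2, which work in the same uptake route, changed in opposite directions. The RefSeq table (GRCm38.p6) held 10 start sites for 6 of the genes: Cubn, Lrp2, Foxa2, Hnf4a, Pdgfra and Dab2. Each window of 300 bases, with 250 before the start and 50 after, was searched on both strands for GATA words (AGATAA or AGATAG or TGATAA or TGATAG). A match was present in 1 window each of Dab2, Hnf4a and Foxa2, that is in 3 of 10, against 29.8% of all 32851 windows, so the share is near the background. FOXA words (TGTTTAC or TGTTTGC or TATTTAC or TATTTGC) were in 2 windows, those of Cubn and Pdgfra, against 13.5% of all. The SOX word ATTGTT (10.7% of all) and the HNF4 words CAAAGTCCA and CAAAGGTCA (0.95% of all) were in none, which says only that these letters are not in these windows. The upstream window of Dab2 held 2 GATA matches, TGATAA at bases 72 to 77 and TTATCT, the reverse complement of AGATAA, at bases 265 to 270. The window of Lrp2 held none. Both are printed 5' to 3' on the strand of the gene, with GATA matches in capitals.
Dab2, chr15:6299539-6299838, plus strand: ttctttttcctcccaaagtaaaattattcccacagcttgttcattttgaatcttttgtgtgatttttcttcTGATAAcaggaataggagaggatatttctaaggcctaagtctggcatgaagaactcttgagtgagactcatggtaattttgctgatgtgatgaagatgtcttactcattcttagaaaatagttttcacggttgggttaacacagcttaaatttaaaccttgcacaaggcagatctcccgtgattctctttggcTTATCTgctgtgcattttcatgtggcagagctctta
Lrp2, chr2:69585980-69586279, minus strand: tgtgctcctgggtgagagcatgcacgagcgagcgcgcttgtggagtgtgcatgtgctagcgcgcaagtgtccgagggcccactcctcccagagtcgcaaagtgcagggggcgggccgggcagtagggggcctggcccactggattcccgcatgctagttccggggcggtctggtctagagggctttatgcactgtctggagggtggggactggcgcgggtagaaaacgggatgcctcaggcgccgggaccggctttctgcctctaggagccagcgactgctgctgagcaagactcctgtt
The printed Dab2 window has 37.7% G and C bases and the Lrp2 window 65.0%, next to a median of 52.7% over all windows. The other Dab2 window, chr15:6386498-6386797, has 59.3% and 0 GATA matches, so the contrast with Lrp2 depends on the start site. No binding or chromatin data are part of this comparison.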

How the data were processed

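Per the labels' protocols, RNA was taken with Trizol and made into QuantSeq 3' FWD libraries. The deposited values are whole-number read counts by Ensembl gene, which the authors did not normalize. Per the submitters' processing notes, Trim Galore and GRCm38 were used. The aligner, the counter and its strand setting were not given in the sources used here. Of 55421 identifiers, 267 had no GENCODE vM21 name and held 0.0118% of counts.

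The groups were compared with edgeR 4.0.16 in R 4.3.3 (quasi-likelihood F test, two-sided, TMM, filterByExpr, Benjamini-Hochberg over 14427 genes, adjusted p below 0.05). Standard errors are the log2 fold change over the square root of F. Ratios of summed counts and of libraries have exact (Clopper-Pearson) 95% intervals, which allow for counting error alone, as reads with no molecular identifier need not be independent molecules. Chi-square per degree of freedom was 11.3 (KO pair) and 18.9 (WT pair), so neither pair is a repeated deposit of 1 library. Members and lists were chosen with earlier results of these data known. Named genes are the 10 members, the cluster, up to 4 genes of each of 11 lists with the smallest p, and the 5 most like Gata6. Others named from the lists were chosen after their values were seen. Some list genes are counted but not reported here by name. Alternatives were other size factors, DESeq2 1.42.0, other filters, a replicate term, thinning to equal depth and each library left out. The fit was tested on simulated data, with changes set in genes at a mean of at least 2 CPM. It recovered 8% of 1.5-fold changes, 54% of 2-fold, 94% of 4-fold and 100% of 8-fold changes. Hnf4a, Foxa2 and Cubn had means below 2 CPM, so these rates do not cover them.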

Additional observations from a re-analysis of the deposited data

How the results depend on the processing

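The number of members called lower in KO against WT was 6 with DESeq2 size factors, library totals alone, no filter and thinned counts, as in the report. It was 5 with the DESeq2 test and with the replicate number as a block, 1 at a mean CPM of at least 10 (where Dab2 and Lrp2 alone were tested), and 3 to 5 with 1 library left out (3 without KO2). The number of members called higher in KO against WT was 1 throughout. Cubn lost its call in the replicate block (adjusted p = 0.0784). The deviations of same-numbered libraries had a correlation of -0.0681 over the tested genes. The labels do not say what the numbers mean, and 1 such value cannot tell whether they mark a shared batch.

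The number of genes called lower in KO against WT (715) became 1193 with no filter, 391 at a mean CPM of at least 10, 370 in the replicate block, and 285 (without KO1) to 1011 (without WT2) in leave-one-out fits. The number of genes called higher in KO against WT (1071) became 636 at a mean CPM of at least 10, 638 in the replicate block, and 556 (without KO2) to 1477 (without WT2) in leave-one-out fits. Genes tested numbered 14427 in the report, with DESeq2 size factors, with library totals alone and in the replicate block. They numbered 25542 with no filter, 8711 at a mean CPM of at least 10 and 15215 to 15295 in leave-one-out fits. The DESeq2 test called 718 lower and 1097 higher of 14647 genes with an adjusted p. With thinned counts, 601 were lower and 924 higher of 14034. The causes of these shifts in the counts were not tested.

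In leave-one-out fits the log2 fold change of Foxa2 lay between -1.73 and 0.36, that of Eomes between -0.88 and 1.46 (0.07 without KO2), and that of Kdr between -1.97 and 1.04. Eomes was 0.20 in the replicate block. The list genes were run through these alternatives after the data were seen. A lone library is assumed to vary like the other group. Depth limits Hnf4a, Pdgfra and Cubn, at 2 to 4 counts in each KO library.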
